A study of Mus musculus with 25 samples.

Results

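The genes described here are 10 markers of lipid-associated and recruited macrophages, which were Trem2, Cd9, Itgax, Cd14, Cd207, Gpnmb, Atp6v0d2, Spp1, Mmp12 and Lyz2. They were chosen by name, as 10 of the 24537 genes in the deposited count table. All 10 had enough reads to be tested, among 14133 genes in all. Liver RNA was sequenced from 24-month-old male mice (strain C57BL6/J), carrying either a knockout of p53 (p53KO) or one of the Rosa26 locus (Rosa26KO) and fed control diet or a high-fat diet (HFD). On control diet there were 6 libraries of each genotype (Control_Rosa26KO and Control_p53KO), and on HFD there were 6 of Rosa26KO (HFD_Rosa26KO) and 7 of p53KO (HFD_p53KO). The strain, sex and age were the same in every group, and no group without a knockout is among the samples. The labels name neither the cells in which p53 was knocked out, nor the make-up of the diets, nor their duration. Levels are given as CPM, the counts of a gene scaled to a common library size after TMM normalization.

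Macrophages that take up lipid in fatty liver and fat tissue carry a shared programme. It is led by TREM2, a surface receptor for lipids and lipoproteins that signals through the adaptor TYROBP, and it includes genes for lysosomes, matrix turnover and lipid handling. In liver injury such cells often descend from blood monocytes that enter the tissue, while Kupffer cells are the resident macrophages of the sinusoids. CD9, a tetraspanin, and CD11c, the integrin alpha chain encoded by Itgax, are used as surface markers of these cells. CD14 is the co-receptor that hands lipopolysaccharide to TLR4, and hepatocytes can also make it. CD207 (langerin) is a C-type lectin best known from Langerhans cells of the skin. GPNMB is a glycoprotein of endolysosomes and the cell surface, ATP6V0D2 is a subunit of the vacuolar proton pump, and LYZ2 is the lysozyme of myeloid cells. SPP1 encodes the secreted matrix protein osteopontin, which bile duct cells make too, and MMP12 is the macrophage elastase. In whole liver a change in the number of macrophages and a change in RNA per macrophage cannot be told apart.

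The stretches just before the transcription starts are shown for Mmp12 and Gpnmb, which moved together most closely, for Cd207, which moved the other way with diet, and for Trem2, which names the programme. They were taken from RefSeq on GRCm38.p6, 250 bases before the start and in the direction of the gene, and capitals mark the AP-1 motif TGANTCA. Windows for 8 of the 10 genes were in the table, 10 windows in all. Atp6v0d2 and Cd14 were not among them.
Mmp12, downstream start (chr9:7347124-7347373, plus strand): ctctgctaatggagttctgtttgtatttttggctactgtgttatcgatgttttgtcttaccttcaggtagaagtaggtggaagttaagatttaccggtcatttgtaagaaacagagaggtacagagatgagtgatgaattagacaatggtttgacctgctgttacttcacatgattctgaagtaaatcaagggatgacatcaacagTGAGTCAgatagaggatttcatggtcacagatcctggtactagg
Gpnmb (chr6:49036268-49036517, plus strand): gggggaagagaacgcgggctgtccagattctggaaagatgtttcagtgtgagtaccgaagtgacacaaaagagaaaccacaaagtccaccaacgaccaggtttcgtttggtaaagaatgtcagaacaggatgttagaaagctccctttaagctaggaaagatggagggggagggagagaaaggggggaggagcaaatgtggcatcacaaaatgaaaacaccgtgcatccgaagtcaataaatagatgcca
Cd207 (chr6:83677858-83678107, minus strand): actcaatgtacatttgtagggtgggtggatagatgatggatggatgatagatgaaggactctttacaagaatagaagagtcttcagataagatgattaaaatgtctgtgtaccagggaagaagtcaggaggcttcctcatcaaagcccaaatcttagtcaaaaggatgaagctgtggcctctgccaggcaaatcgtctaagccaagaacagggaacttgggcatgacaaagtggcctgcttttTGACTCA
Trem2 (chr17:48346151-48346400, plus strand): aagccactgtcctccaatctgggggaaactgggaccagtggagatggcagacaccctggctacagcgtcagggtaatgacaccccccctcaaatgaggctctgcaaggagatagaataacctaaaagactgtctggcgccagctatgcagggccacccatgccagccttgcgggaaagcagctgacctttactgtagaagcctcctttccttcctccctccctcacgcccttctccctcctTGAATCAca

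The motif TGANTCA, searched on both strands, began 44 bases before the downstream Mmp12 start, 7 before that of Cd207, 9 before that of Trem2 and 56 before that of Itgax. It lay in windows of 4 of the 8 genes, against 6.75% of the 32851 windows of the same length. GAGGAAGT, a motif of the myeloid factor PU.1, lay in the window of the upstream Mmp12 start and in 1 of the Spp1 windows, so in 2 of the 8 genes against 2.44% of windows. CACGTG, the E-box of the lysosomal TFE factors, lay in windows of 0 of the 8 genes against 6.02% of all windows. No searched motif lay in the Gpnmb window. These matches describe letters only, and binding was not measured.

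Total counts ran from 16324283 to 21501281 per library. Albumin (Alb), the chief product of hepatocytes, lay between 36494 and 130631 CPM. Trp53, the targeted gene, lay between 30.6 and 43.7 CPM in the 12 Rosa26KO libraries, between 17.2 and 35.6 CPM in Control_p53KO and between 19.6 and 31.0 CPM in HFD_p53KO, so its transcript remained. Control_p53KO 3, at 35.6 CPM, and HFD_p53KO 7, at 31.0 CPM, lay inside the Rosa26KO range. Control_p53KO 3 also had the highest summed level of the 12 general macrophage markers, 4219 CPM against at most 1952 CPM elsewhere. The same library was highest in the 10 Kupffer cell markers, 2295 CPM against at most 1252 CPM elsewhere. Control_p53KO 1 had the highest sums of the 12 neutrophil markers (617 CPM) and the 10 acute phase genes (80752 CPM). HFD_Rosa26KO 6 was next in neutrophil markers, at 401 CPM. Values without these libraries are given beside the results that they moved most.

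Per kilobase of exon, Lyz2 stood highest, with a median of 118 CPM per kb over the 25 libraries, followed by Spp1 at 88.3 and Cd9 at 19.2. Cd14 followed at 6.88 CPM per kb and Atp6v0d2 at 3.77, and then Itgax at 2.28, Cd207 at 1.89, Mmp12 at 1.77, Gpnmb at 1.64 and Trem2 at 1.29. Within libraries Spp1 lay above Cd9 in 25 of 25 and Cd9 above Cd14 in 23 of 25. The other neighbours in this order changed places more often, since the gene with the higher median was the higher one in 4 (Mmp12 and Gpnmb) to 19 of 25 libraries. Cd207 varied most between libraries, 749-fold from 0.356 to 267 CPM, and Cd9 least, 3.88-fold from 19.6 to 75.9 CPM. The smallest count behind any value was 8 reads, for Cd207.

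**Figure D1:**
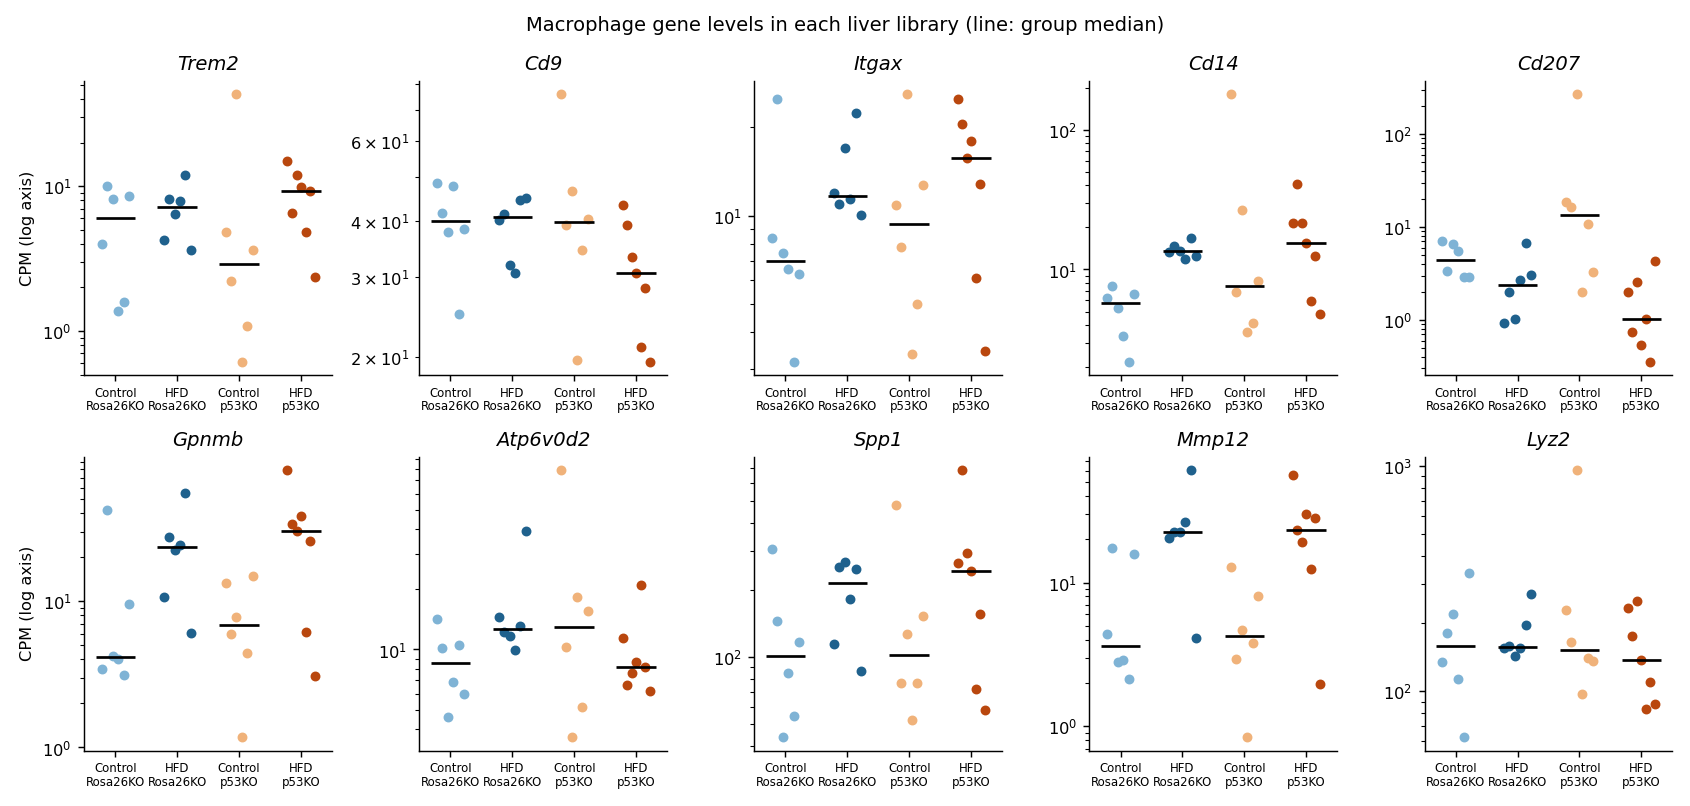
CPM of each of the 10 macrophage genes in the 25 liver libraries (log axis), by group, with a line at the group median. Mmp12 medians lie near 4 CPM on control diet and above 22 CPM on HFD in both genotypes, and single Control_p53KO libraries reach 267 CPM for Cd207 and 179 CPM for Cd14.

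Mmp12 rose and Cd207 fell on HFD when both genotypes were averaged. They were the 2 of 10 macrophage genes that passed, where 9.71% of all 14133 genes did. In the direction of Mmp12 4.64% of genes passed, and in that of Cd207 5.07% did. Of the 10 genes 6 had a log2 fold change above 0, and their median was 0.12, against -0.01 over all genes. All tests of fold change were two-sided quasi-likelihood tests in edgeR with Benjamini-Hochberg adjustment over all genes, at a threshold of 0.05. Beside a log2 fold change stands its standard error (SE). Positions of genes are those of GENCODE M21 on GRCm38, and all 10 are protein coding.

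Mmp12 (chr9:7344381-7369499, plus strand) encodes an elastase that macrophages secrete. In Control_Rosa26KO it ran from 2.13 to 17.4 CPM with a median of 3.63, and in HFD_Rosa26KO from 4.11 to 60.6 CPM with a median of 22.4. The p53KO groups were alike, from 0.839 to 12.8 CPM with a median of 4.23 on control diet and from 1.97 to 55.8 CPM with a median of 23.1 on HFD. In all, 10 of 13 HFD libraries lay above the highest control library of their genotype. The exceptions were HFD_Rosa26KO 6 (4.11 CPM), HFD_p53KO 7 (1.97 CPM) and HFD_p53KO 5 (12.4 CPM), and the groups overlapped. The average log2 fold change of Mmp12 was 1.96 (SE 0.48, 3.89-fold, adjusted p = 0.0113), and it passed in each of 33 alternative fits, from 1.74 to 2.47. Within a genotype Mmp12 did not pass, at 1.78 (SE 0.68, adjusted p = 0.18) in Rosa26KO and 2.15 (SE 0.68, adjusted p = 0.079) in p53KO. In p53KO it passed in 5 of 34 alternatives (adjusted p from 0.0256 to 0.151), among them DESeq2, limma voom and the fit without HFD_p53KO 7. In Rosa26KO it passed in 1 of 34, limma voom (0.0138 to 0.369). Its exons overlap Mmp1b on the other strand, which had 0 counts in every library.

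Gpnmb followed the same order of groups without passing. The gene lies at chr6:49036546-49070929, plus strand. It ran from 3.11 to 42.0 CPM (median 4.14) in Control_Rosa26KO and from 6.04 to 55.1 CPM (median 23.4) in HFD_Rosa26KO. In p53KO it ran from 1.17 to 14.8 CPM (median 6.87) on control diet and from 3.09 to 79.0 CPM (median 30.3) on HFD. Control_Rosa26KO 2 stood far above its group at 42.0 CPM, where the next library had 9.55, and HFD_Rosa26KO 6, HFD_p53KO 5 and HFD_p53KO 7 were the lowest of the HFD libraries. Over both genotypes 11 of 13 HFD libraries lay above the control median of their genotype. The average log2 fold change of Gpnmb was 1.55 (SE 0.51, adjusted p = 0.0571). The adjusted p passed in 10 of 33 alternatives and ranged from 0.00178 to 0.116, and DESeq2 gave 0.0224. Without Control_Rosa26KO 2 the log2 fold change was 2.14 (adjusted p = 0.00397). That fit leaves out the highest control value of Gpnmb, so its pass follows in part from that choice.

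Spp1 (chr5:104435118-104441050, plus strand), the osteopontin gene, had higher medians on HFD than on control diet and did not pass. Its range was 43.8 to 306 CPM (median 101) in Control_Rosa26KO and 86.9 to 266 CPM (median 216) in HFD_Rosa26KO. On control diet in p53KO it was 52.3 to 482 CPM (median 102), and on HFD 57.9 to 688 CPM (median 243). The highest control libraries, Control_Rosa26KO 1 and Control_p53KO 1, and HFD_p53KO 2, the highest of all, were also the highest 3 in acute phase genes. The part of this in the Spp1 level was not tested. The average log2 fold change of Spp1 was 0.63 (SE 0.40, adjusted p = 0.36), and without 4 libraries that earlier results named as high in acute phase genes (Control_p53KO 1, Control_Rosa26KO 1, HFD_p53KO 2 and HFD_p53KO 7) it was 1.09 (adjusted p = 0.0185, range over 33 alternatives 0.00785 to 0.595). These libraries hold the highest control Spp1 value of each genotype. They also hold the lowest HFD value (HFD_p53KO 7, 57.9 CPM) and the highest (HFD_p53KO 2, 688 CPM). The pass without them follows in part from that choice. The 10 cholangiocyte markers, whose cells also make osteopontin, summed to medians of 62.4 and 51.0 CPM in Rosa26KO on control diet and HFD, and of 51.6 and 52.2 CPM in p53KO. Of the 8 that were tested 0 passed for the diet average, where 9.71% of all genes did.

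**Figure D2:**
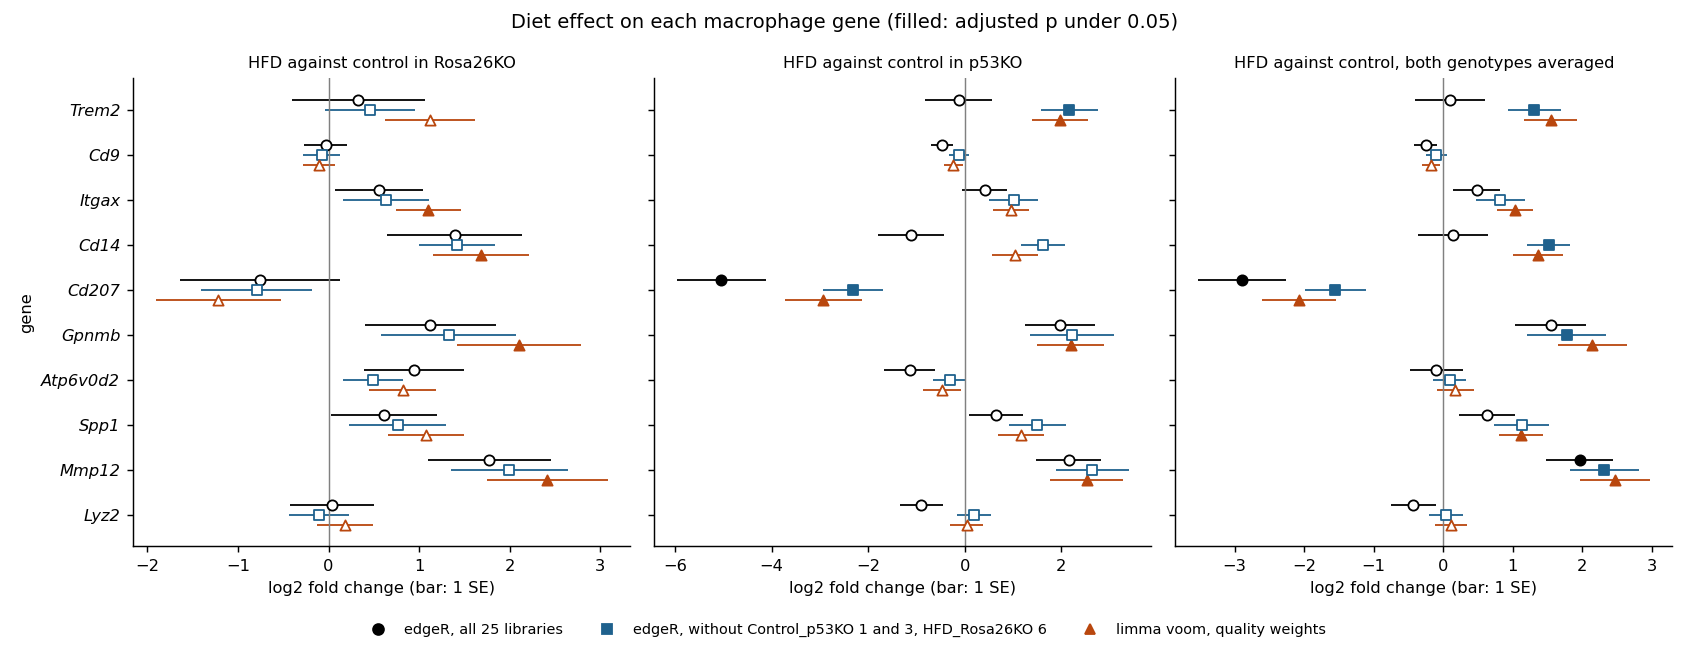
Log2 fold change of each gene on HFD (point, with a bar of 1 SE) in Rosa26KO, in p53KO and as the average, in edgeR with all 25 libraries, in edgeR without Control_p53KO 1 and 3 and HFD_Rosa26KO 6, and in limma voom. Filled points have an adjusted p under 0.05. With all libraries these are Cd207 in p53KO and Cd207 and Mmp12 in the average, and the Trem2 and Cd14 points in p53KO lie below 0 with all libraries and above 0 in the other fits.

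Cd207 (chr6:83671215-83677857, minus strand), the langerin gene, fell on HFD. In Rosa26KO it ran from 2.87 to 7.01 CPM (median 4.43) on control diet and from 0.931 to 6.77 CPM (median 2.35) on HFD. In p53KO it ran from 2.01 to 267 CPM (median 13.5) on control diet and from 0.356 to 4.32 CPM (median 1.02) on HFD. Of the 13 HFD libraries 9 lay below the lowest control library of their genotype, and all 7 of HFD_p53KO lay below the control median. The top control value came from Control_p53KO 3, and the next in that group was 18.7 CPM. Cd207 was the 1 macrophage gene of 10 that passed in p53KO alone, where 2.87% of all genes passed and 1.25% passed as lower and 1.62% as higher. Its log2 fold change there was -5.04 (SE 0.93, adjusted p = 0.00659). Without Control_p53KO 3 it was -2.65 (SE 0.59, adjusted p = 0.0180, range over 34 alternatives 7.98e-07 to 0.0629), and the fit with the p53KO groups alone, at 0.0629, ended the call. The average was -2.90 (SE 0.63, adjusted p = 0.00540), and without Control_p53KO 3 it was -1.70 (adjusted p = 0.00949, range over 33 alternatives 4.77e-05 to 0.0193). In Rosa26KO alone the log2 fold change was -0.76 (SE 0.89, adjusted p = 0.68). Control_p53KO 3 was also the library with the highest macrophage and Kupffer cell marker sums, and the part of these in the result was not tested.

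Cd14 (chr18:36725067-36726798, minus strand) was the 1 gene of 10 whose Rosa26KO groups did not overlap. It lay between 2.19 and 7.66 CPM (median 5.80) in Control_Rosa26KO and between 11.9 and 16.8 CPM (median 13.4) in HFD_Rosa26KO. Of all genes 1.20% were likewise higher in every HFD_Rosa26KO library, and 1.81% were lower. In p53KO no member's groups were apart, where 0.644% of all genes were higher and 0.41% lower throughout. In p53KO the control values ran from 3.58 to 179 CPM (median 7.59) and the HFD values from 4.81 to 40.8 CPM (median 15.4), so the medians had the same order while Control_p53KO 1 stood at 179 CPM, far above the next at 26.6. The log2 fold change of Cd14 was 1.39 (SE 0.75, adjusted p = 0.34) in Rosa26KO, -1.12 (SE 0.68, adjusted p = 0.40) in p53KO and 0.14 (SE 0.50, adjusted p = 0.90) on average. The main fit takes 1 estimate of spread per gene over all 4 groups, Control_p53KO 1 included. A fit with the Rosa26KO groups alone gave 1.40 (SE 0.24, adjusted p = 0.00779, range over 34 alternatives 0.00779 to 0.506). Without Control_p53KO 1 the value in p53KO was 0.82 (adjusted p = 0.38), and the average was 1.11 (adjusted p = 0.0374, range over 33 alternatives 0.00267 to 0.992). That fit leaves out the highest Cd14 value, so its pass follows in part from that choice. Control_p53KO 1 was the library highest in neutrophil markers and acute phase genes, whose part in the Cd14 level was not tested.

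In Rosa26KO 0 of the 10 macrophage genes passed on HFD, where 1.51% of all genes passed, 0.446% as higher and 1.06% as lower. Of the 10 log2 fold changes 8 were above 0, with a median of 0.58 against 0.003 over all genes. In p53KO 4 of 10 were above 0, with a median of -0.30 against -0.02. These p53KO signs depended on a few libraries. Without Control_p53KO 1 and 3 and HFD_Rosa26KO 6, Trem2, Cd14 and Lyz2 there were at 2.17, 1.61 and 0.19. In limma voom they were at 1.96, 1.04 and 0.044. Cd207 and Cd9 stayed below 0 in all 34 alternatives. At an unadjusted p under 0.05 there were 1 of 10 in Rosa26KO and 5 of 10 in p53KO, against 17.5% and 18.8% of all genes.

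Trem2 (chr17:48346401-48354147, plus strand), the lipid receptor, had overlapping ranges in all groups. It ran from 1.38 to 10.0 CPM (median 6.07) in Control_Rosa26KO and from 3.64 to 12.04 CPM (median 7.13) in HFD_Rosa26KO. In Control_p53KO it ran from 0.615 to 43.0 CPM (median 2.92), and in HFD_p53KO from 2.35 to 14.9 CPM (median 9.27). The value of 43.0 CPM was that of Control_p53KO 3, and the other 5 libraries of its group had at most 4.86 CPM. The log2 fold change of Trem2 on HFD was 0.33 (SE 0.73, adjusted p = 0.85) in Rosa26KO and -0.12 (SE 0.70, adjusted p = 0.95) in p53KO. Without Control_p53KO 3 the value in p53KO was 1.78 (SE 0.54, adjusted p = 0.0711, range over 34 alternatives 0.0249 to 0.999), and without Control_p53KO 1 and 3 and HFD_Rosa26KO 6 it was 2.17 (SE 0.59, adjusted p = 0.0459). The average was 0.10 (SE 0.51, adjusted p = 0.93) with all libraries and 1.31 (SE 0.38, adjusted p = 0.0226, range over 33 alternatives 0.00319 to 0.999) without those 3. Those 3 include Control_p53KO 3, the library with the highest Trem2 value. The passes without them follow in part from that choice and are no separate evidence of a rise.

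Itgax (chr7:128129547-128150657, plus strand), the CD11c gene, had a median of 7.00 CPM (range 3.17 to 24.98) in Control_Rosa26KO and 11.6 CPM (range 10.0 to 22.4) in HFD_Rosa26KO. In Control_p53KO the median was 9.35 CPM (range 3.36 to 25.9), and in HFD_p53KO 15.7 CPM (range 3.46 to 25.1). Of the HFD libraries 11 of 13 lay above the control median of their genotype, and 0 above the highest control library. The average log2 fold change of Itgax was 0.48 (SE 0.34, adjusted p = 0.41). It passed in limma voom, at 1.03 (adjusted p = 0.00379, range over 33 alternatives 0.00379 to 0.558), and in no other of these fits.

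Cd9 (chr6:125460266-125494791, minus strand), which many liver cell types express, had medians of 39.9 CPM (range 24.9 to 48.3) on control diet and 40.7 CPM (range 30.7 to 44.8) on HFD in Rosa26KO. In p53KO the medians were 39.8 CPM (range 19.7 to 75.9) and 30.7 CPM (range 19.6 to 43.4), and the groups overlapped. The highest value was that of Control_p53KO 1. Its log2 fold change on HFD was -0.03 (SE 0.23) in Rosa26KO, with a 95% interval of -0.52 to 0.46, and -0.47 (SE 0.23, adjusted p = 0.26) in p53KO. Cd9 exons overlap Gm26728 on the other strand, and the strand of counting was not given in the sources used here.

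Atp6v0d2 (chr4:19876841-19922605, minus strand), the proton pump subunit, had opposite signs in the genotypes. It ran from 4.59 to 14.1 CPM (median 8.55) in Control_Rosa26KO and from 9.89 to 39.1 CPM (median 12.7) in HFD_Rosa26KO. In p53KO it ran from 3.64 to 78.8 CPM (median 12.9) on control diet and from 6.23 to 20.9 CPM (median 8.20) on HFD. All 6 HFD_Rosa26KO libraries lay above their control median, and 6 of 7 HFD_p53KO libraries lay below theirs. The log2 fold change of Atp6v0d2 was 0.94 (SE 0.55, adjusted p = 0.38) in Rosa26KO and -1.14 (SE 0.53, adjusted p = 0.24) in p53KO, and neither passed. Without Control_p53KO 1, at 78.8 CPM, the value in p53KO was -0.09 (adjusted p = 0.93), and without HFD_Rosa26KO 6, at 39.1 CPM, that in Rosa26KO was 0.49 (adjusted p = 0.67, range over 34 alternatives 0.115 to 0.672).

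Lyz2 (chr10:117277331-117282321, minus strand), the myeloid lysozyme, had medians of 158 CPM in Control_Rosa26KO (range 62.5 to 335), 157 in HFD_Rosa26KO (143 to 269), 153 in Control_p53KO (97.1 to 958) and 137 in HFD_p53KO (83.7 to 251). Control_p53KO 3 held the 958 CPM, and the groups overlapped. The log2 fold change of Lyz2 on HFD was 0.04 (SE 0.47, adjusted p = 0.98) in Rosa26KO and -0.90 (SE 0.45, adjusted p = 0.28) in p53KO, and without Control_p53KO 3 the latter was 0.001 (adjusted p = 0.999). Reads can be shared with Lyz1, since 5.96% of the 75-base stretches of Lyz2 also occur in Lyz1, which had 8 to 148 counts per library.

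Library names fell into 3 runs of consecutive numbers, which the labels do not call batches. Mean log2 CPM of Mmp12 was higher on HFD by 1.90, 3.28 and 1.06 within these runs, and that of Gpnmb by 1.51, 2.95 and 0.85, with both genotypes averaged. Cd207 differed by -2.74, -2.99 and -0.77. For Trem2 the values were 0.72, 1.01 and 1.01, and for Cd14 0.38, 1.23 and 1.08, so these averages kept 1 direction in each run for all 5 genes. Within a genotype Mmp12 did so too, while each of the others had an exception. These were Cd207 in Rosa26KO in the last run (0.65), Gpnmb in p53KO in the last run (-0.03), Trem2 in Rosa26KO in the first run (-0.11) and Cd14 in p53KO in the first run (-0.25). With both genotypes averaged, Itgax (0.48, 0.91 and 0.72), Spp1 (0.42, 1.78 and 0.28) and Cd9 (-0.27, -0.18 and -0.09) also kept 1 direction. Atp6v0d2 (-0.78, 0.45 and 0.85) and Lyz2 (0.03, -0.40 and 0.05) changed sign between runs.

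**Figure D3:**
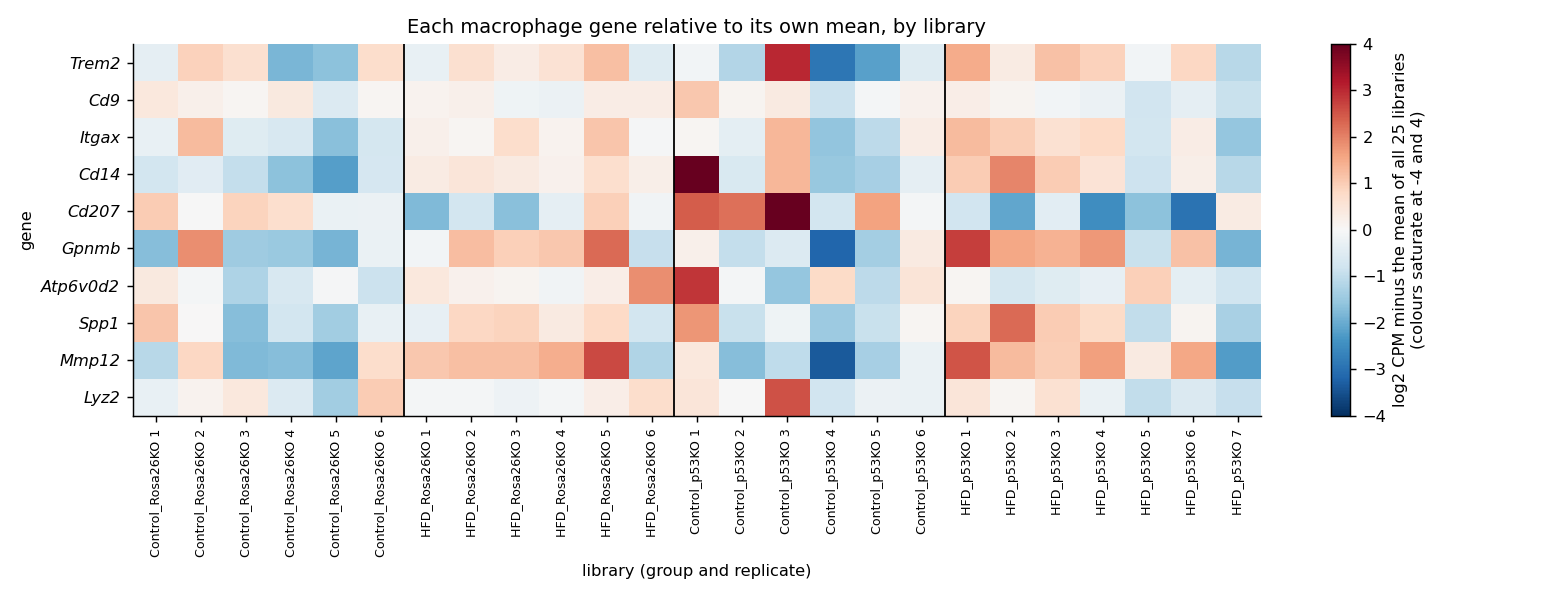
Log2 CPM of each macrophage gene (rows) in each library (columns, by group), less the mean of the gene over the 25 libraries; colours saturate at -4 and 4. Trem2, Cd207 and Lyz2 are red in Control_p53KO 3, Cd14, Atp6v0d2 and Spp1 in Control_p53KO 1, and Gpnmb and Mmp12 are mostly red in both HFD groups, with HFD_Rosa26KO 6 and HFD_p53KO 7 blue.

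Between genotypes 0 of the 10 macrophage genes passed in either diet or over both diets, where 0% of all genes passed in edgeR. At an unadjusted p under 0.05 there were 1408 genes for control diet, 509 for HFD and 573 over both diets, and among the 10 there were 3, 0 and 2. DESeq2 called 1, 1 and 7 of all genes and 0 of the 10, and limma voom likewise 0 of the 10. The genotypes overlapped for all 10 genes, where on control diet 0.113% of all genes were higher and 0.17% lower throughout in p53KO, and on HFD 0.0778% and 0.0708%. On control diet 8 of 10 log2 fold changes were above 0 in p53KO, with a median of 0.54 against 0.01 over all genes. The largest were those of Cd207 at 3.50 (SE 0.90, adjusted p = 0.45), Cd14 at 2.85 (SE 0.77, adjusted p = 0.45) and Atp6v0d2 at 1.33 (SE 0.55, adjusted p = 0.47). Without Control_p53KO 3 Cd207 was at 1.12, Trem2 went from 0.72 to -1.18 and Lyz2 from 0.72 to -0.18. Without Control_p53KO 1 Cd14 was at 0.92 and Atp6v0d2 at 0.28. On HFD 5 of 10 were above 0 and the median was -0.02 against 0.01 over all genes. The genotype comparisons share libraries with the diet comparisons and are not independent of them.

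The effect of diet was not shown to differ between the genotypes for any of the 10 genes. For this interaction, given as the log2 fold change on HFD of p53KO less that of Rosa26KO, 0% of all genes passed in edgeR and 1221 had an unadjusted p under 0.05, 3 of the 10 among them. These were Cd207 at -4.28 (SE 1.25, adjusted p = 0.53), Cd14 at -2.51 (SE 1.01, adjusted p = 0.56) and Atp6v0d2 at -2.08 (SE 0.76, adjusted p = 0.56). DESeq2 called 5 of all genes and 0 of the 10, and limma voom 0 of the 10. Without Control_p53KO 3 Cd207 was at -1.89, and without Control_p53KO 1 Cd14 was at -0.57 and Atp6v0d2 at -1.03. The Mmp12 difference was 0.37 (SE 0.92), with a 95% interval of -1.55 to 2.29, and that of Gpnmb 0.84, with an interval of -1.24 to 2.93.

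Across the 25 libraries most of the macrophage genes, other than Atp6v0d2 and Cd207, varied together. Of the 45 pairs of all 10, 38 had a positive correlation of log2 CPM, and 23 passed by Pearson's r after adjustment, all positive (permutation test with 100000 resamples, two-sided, adjusted over the pairs). The median r was 0.50, and 0.59 once group means were subtracted. Of the member pairs 51.1% had an r of at least 0.50, the smallest that passed, and 84.4% were positive. Over all pairs of 12274 other genes 8.76% reached that r, 49.6% were positive and the median r was -0.004. The genes of a pair share libraries and depth.

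The closest pair was Gpnmb and Mmp12. Their r was 0.94 (permutation p = 1e-05, the smallest the resamples can give, adjusted p = 0.000112) and their rho 0.92 (adjusted p = 0.000112). With group means subtracted r was 0.92, within the runs of library names it was 0.88, 0.99 and 0.93, and without the 2 libraries farthest from the median of Gpnmb it was 0.91. The relation thus held inside the groups as well as across them. Gpnmb and Itgax followed at r = 0.85 (rho 0.85, permutation adjusted p = 0.000112 for both, 0.81 without the 2 farthest libraries, 0.90, 0.79 and 0.93 within runs). Trem2 and Itgax had an r of 0.81 and a rho of 0.79 (permutation adjusted p = 0.000112 for both), with 0.75 without the 2 farthest libraries and 0.84, 0.90 and 0.73 within runs. Trem2 and Gpnmb had an r of 0.71 and a rho of 0.78 (permutation adjusted p = 0.000562 and 0.000112), with 0.81 without the 2 farthest libraries and 0.90, 0.62 and 0.83 within runs.

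Cd14 paired most closely with Spp1, at r = 0.79 and rho = 0.78 (permutation adjusted p = 0.000112 and 0.00015), with 0.77 without the 2 farthest libraries and 0.68, 0.77 and 0.82 within runs. Control_p53KO 1 and HFD_p53KO 2 were the 2 highest libraries for both genes.

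By Pearson's r Cd207 passed with Lyz2 alone of the other 9 genes, and by Spearman's rho with Cd9 and, as a negative relation, with Mmp12. Its r with Mmp12 was -0.40 (permutation adjusted p = 0.0768) and its rho -0.52 (adjusted p = 0.0217). It was -0.40 without the 2 libraries farthest from the median of Cd207 and -0.70, -0.37 and -0.30 within runs, but -0.03 with group means subtracted. With Trem2 its r was 0.12 (permutation adjusted p = 0.617) and its rho -0.20 (adjusted p = 0.453), and r was 0.53 with group means subtracted, -0.42 without the 2 farthest libraries from the median of Trem2, and -0.50, 0.48 and -0.44 within runs. Cd207 and Lyz2 had an r of 0.59 (permutation adjusted p = 0.0158) and a rho of 0.27 (adjusted p = 0.306), with 0.15, 0.86 and 0.26 within runs, and r was 0.17 without the 2 libraries farthest from the median of Cd207. That relation rests on those libraries, Control_p53KO 3 among them. Atp6v0d2 did not pass with any of the other 9 genes, with r from -0.22 (Trem2) to 0.37 (Cd14).

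**Figure D4:**
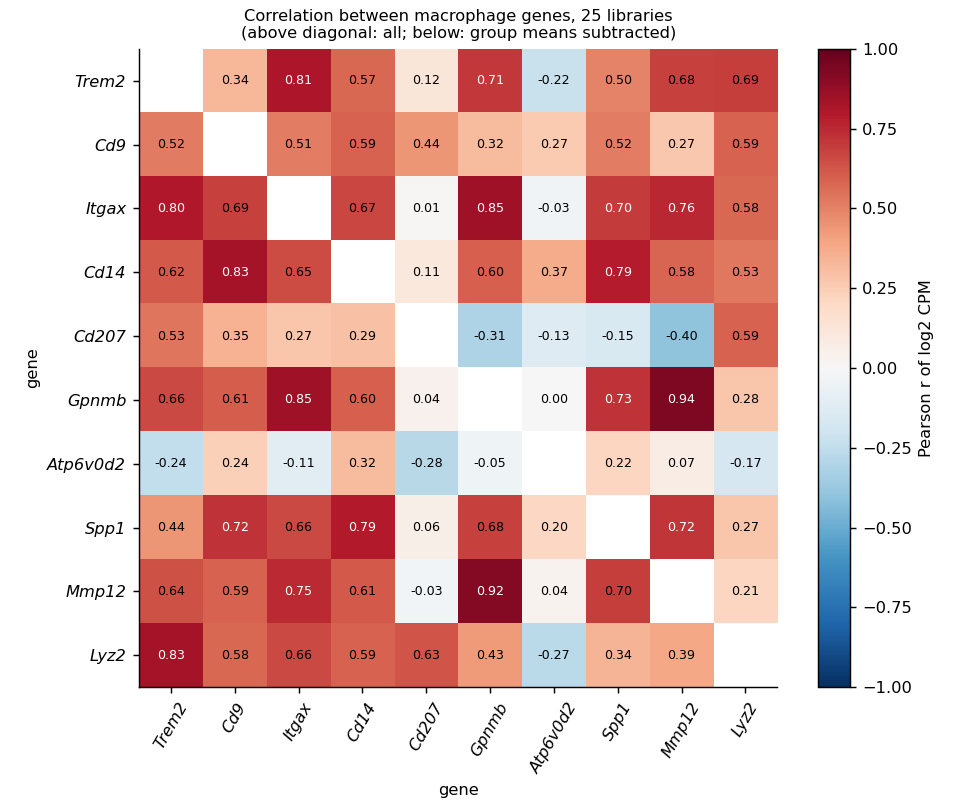
Pearson r of log2 CPM between the 10 macrophage genes over 25 libraries, with all libraries above the diagonal and with group means subtracted below it. Gpnmb, Mmp12, Itgax, Trem2, Cd14 and Spp1 form a block of positive values that stays below the diagonal, from 0.50 between Trem2 and Spp1 to 0.94 between Gpnmb and Mmp12 above it, while Atp6v0d2 is pale against most genes.

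**Figure D5:**
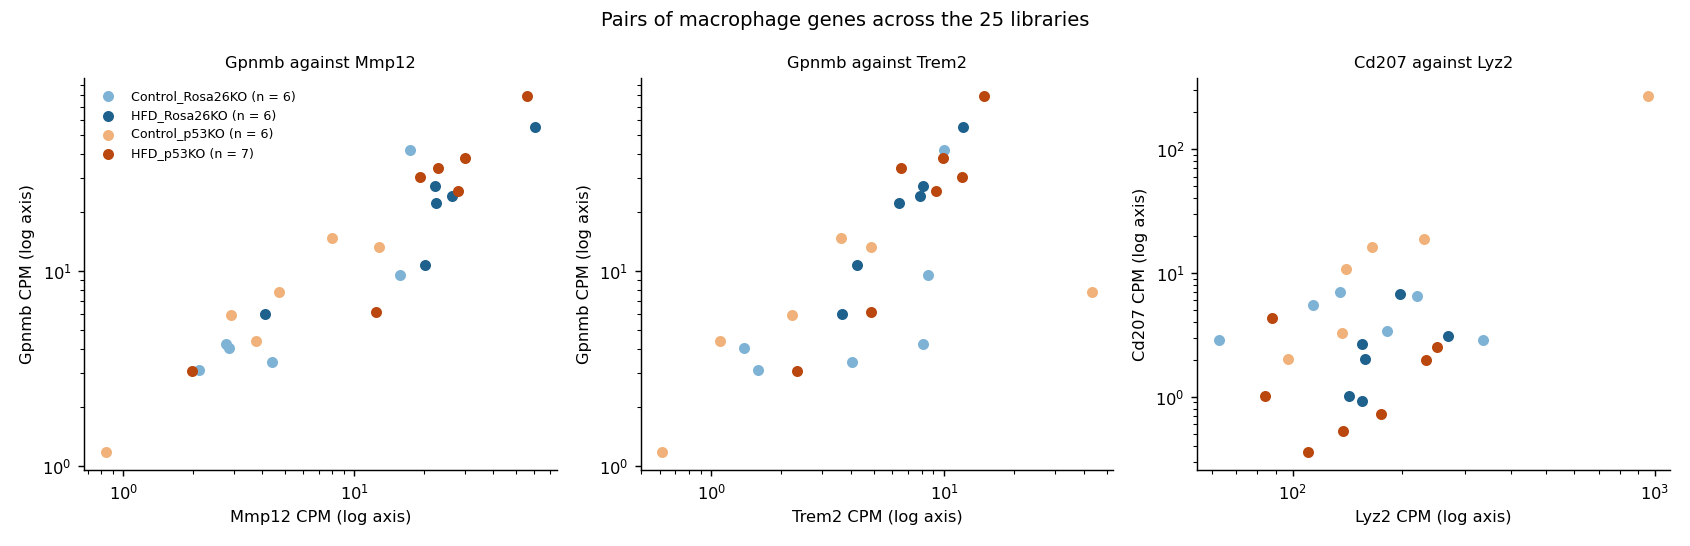
CPM of Gpnmb against Mmp12, Gpnmb against Trem2 and Cd207 against Lyz2 in each of the 25 libraries, coloured by group (log axes). Gpnmb and Mmp12 lie along a line in all 4 groups, and Control_p53KO 3 lies alone at 43.0 CPM of Trem2 and at 267 CPM of Cd207 with 958 CPM of Lyz2.

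The genes nearest to each member in pattern were taken from 12274 others by Pearson r over the 25 libraries, as a description. Trem2 was nearest to the lectin gene Clec7a (r = 0.90, and 0.91 with group means subtracted), Bcl2a1b (0.90) and Cd300ld3 (0.89). Itgax was nearest to Ppfia4 (0.96), the fractalkine receptor gene Cx3cr1 (0.95) and the collagen gene Col1a1 (0.95). Gpnmb was nearest to the adaptor gene Lat2 (0.91), the annexin gene Anxa5 (0.91) and Col1a1 (0.90), and Mmp12 to Anxa5 (0.87), Mfge8 (0.86), which encodes a bridging protein for the uptake of dying cells, and Nrg1 (0.85). The annexin and collagen genes thus occur in more than 1 of these lists. Cd14 was nearest to Golm1 (0.96), the interleukin-1 receptor antagonist gene Il1rn (0.95) and the inflammatory caspase gene Casp4 (0.94). Lyz2 was nearest to the lectin gene Clec4n (0.94), Aoah (0.94), whose product inactivates lipopolysaccharide, and Arrb2 (0.93). For Spp1 they were Ace (0.88), Gipc2 (0.86) and Elf3 (0.86), and for Cd9 C7 (0.86), Rcn2 (0.85) and Pygb (0.84). Atp6v0d2 was nearest to the steroid enzyme gene Cyp17a1 (0.81), Arrdc4 (0.80) and Dusp14 (0.75), and Cd207 to Abca9 (0.84), Spef1 (0.83) and Zfp764 (0.83), so these last had the loosest neighbours. By rank they were looser still, with a rho of 0.66, 0.70 and 0.58 for Atp6v0d2 and 0.68, 0.67 and 0.82 for Cd207.

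Beyond the 10 genes, the companions of the lipid-associated programme were followed in a list of 30 genes, of which 29 were tested. For the diet average 5 rose and 1 fell, 6 of 29 against 9.71% of all genes, and the median log2 fold change was 0.19 against -0.01 over all genes. Those that rose were Plin2, which coats lipid droplets (0.77, SE 0.16, adjusted p = 0.00322), the fatty acid transporter gene Cd36 (1.05, SE 0.24, adjusted p = 0.00778), the protease inhibitor gene Cstb (0.58, SE 0.15, adjusted p = 0.0141), the fatty acid binding protein gene Fabp4 (1.11, SE 0.32, adjusted p = 0.0310) and the galectin gene Lgals1 (1.01, SE 0.31, adjusted p = 0.0404). Fabp4 and Lgals1 were named after their values were seen, and Lgals1 did not pass without the 4 libraries high in acute phase genes (adjusted p = 0.0623, range over 4 alternatives 7.87e-05 to 0.0623). Without Control_p53KO 1 and 3 and HFD_Rosa26KO 6 12 of the 29 passed, where 17.6% of all genes did, and in limma voom 21 of 29, where 35.4% of all genes did. Plin2 and Cd36 are also expressed by hepatocytes. The 1 gene that fell was Fabp5, another fatty acid binding protein gene, with a log2 fold change of -2.64 (SE 0.29, adjusted p = 6.70e-06). Livers of Rosa26KO mice held 124 ± 76.3 CPM of Fabp5 on control diet and 21.7 ± 10.7 CPM on HFD (mean ± SD, n = 6 each). Those of p53KO mice held 89.1 ± 38.3 CPM (n = 6) and 13.1 ± 3.78 CPM (n = 7), and Fabp5 passed in both genotypes, at -2.51 (adjusted p = 0.00354) and -2.77 (adjusted p = 0.00139).

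The partners of single members did not pass for the diet average in edgeR, where 9.71% of all genes did. Of 8 genes of TREM2 signalling and shedding 0 passed, with a median log2 fold change of 0.16. Tyrobp, the adaptor gene, averaged 21.6 CPM (SD 7.78) on control diet and 33.6 CPM (SD 4.88) on HFD in Rosa26KO, against 35.6 CPM (SD 34.3) and 29.0 CPM (SD 12.3) in p53KO. Of 12 osteopontin receptors and integrin partners of Itgax 0 passed, with a median of 0.04, and Cd44, a receptor of osteopontin, averaged 18.8 CPM (SD 6.37), 37.3 CPM (SD 10.4), 33.7 CPM (SD 18.3) and 29.3 CPM (SD 14.2) in the same order of groups. Of 12 genes of the CD14 and TLR4 pathway 0 passed, with a median of 0.07. Of 15 MiT/TFE factors and lysosomal pump genes, which include regulators of Gpnmb, 0 passed for the average, with a median of -0.01. In limma voom, which called 35.4% of all genes, 5 of the 8 TREM2 genes, 4 of the 12 osteopontin receptors and integrin partners, 4 of the 12 CD14 and TLR4 genes and 6 of the 15 MiT/TFE genes passed. DESeq2, which called 12.8% of all genes, called 2 of the 15 and 0 in the other 3 lists. The calcium channel gene Mcoln1 of that list fell in Rosa26KO, by 0.34 on the log2 scale (SE 0.09, adjusted p = 0.0479). It was the 1 gene of the 15 that passed there, where 1.51% of all genes did.

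The markers of the cells that could carry the 10 genes were counted in the same way. For the diet average 9.71% of all genes passed in edgeR, 4.64% as higher and 5.07% as lower. Of 12 monocyte markers 0 passed for the diet average, 11 of 12 log2 fold changes were above 0, and their median was 0.62, while limma voom called 10 of the 12, where it called 35.4% of all genes. The summed monocyte markers ran from 22.2 to 99.96 CPM in Control_Rosa26KO, 63.1 to 130 CPM in HFD_Rosa26KO, 38.5 to 280 CPM in Control_p53KO and 30.6 to 192 CPM in HFD_p53KO. Of 12 general macrophage markers 0 passed (9 of 12 in limma voom), with a median of 0.15, and their sums ran from 400 to 1318 CPM, 1130 to 1635 CPM, 683 to 4219 CPM and 694 to 1952 CPM in the same order. Of 10 Kupffer cell markers 1 passed, the scavenger receptor gene Cd163, which fell by 2.57 on the log2 scale (SE 0.67, adjusted p = 0.0165). Its control values ran from 0.935 to 64.7 CPM in Rosa26KO and from 1.27 to 76.9 CPM in p53KO, against at most 5.68 CPM on HFD, and limma voom gave an adjusted p of 0.0516 (range over 4 alternatives 0.00108 to 0.0516). DESeq2, which called 12.8% of all genes, called 3 of the 10 Kupffer cell markers, and limma voom called 4. Of the monocyte markers DESeq2 called 2 of 12, and of the general macrophage markers 0 of 12. Of 10 dendritic cell markers 0 passed (4 in limma voom), and of 11 tested neutrophil markers 0 passed. Without Control_p53KO 1 and 3 and HFD_Rosa26KO 6, 2500 of all genes passed in edgeR. That fit called 8 monocyte, 5 general macrophage, 4 Kupffer cell, 2 dendritic cell and 0 neutrophil markers. Among neutrophil genes Ly6g and Camp were at 0 in at least 1 library of every group. Of 10 hepatocyte genes 5 fell and 0 rose for the average, among them Cps1 (-0.89), Apoa1 (-0.52), Alb (-0.63) and Ass1 (-0.73). The part of these markers in the levels of the 10 genes was not tested.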

How the data were processed

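Liver polyA RNA was sequenced in 25 libraries. The deposited values are raw counts per gene made by the authors, and STAR, HOMER and the builds GRCm38 and mm10 are named in the submitters' processing notes. Tool versions, gene annotation, strand setting and treatment of multiply mapped reads were not given in the sources used here. No column was without a sample. Genes were kept by filterByExpr (minimum count 10, minimum total 15) and scaled by TMM. The quasi-likelihood test of edgeR 4.0.16 (R 4.3.3, robust) was fitted to the 4 groups for 7 comparisons, with Benjamini-Hochberg adjustment over all tested genes and a threshold of 0.05. Intervals of 95% use the t distribution with 21 degrees of freedom. Log2 CPM for correlations used a prior count of 2. The labels do not say whether libraries of a group are separate mice, so p-values measure the spread between these libraries.

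The members, 17 gene lists (198 genes) and the tests were chosen with earlier results of these data known. The text names all members, the 3 nearest genes of each (mean of at least 1 CPM), and up to 4 genes of smallest p that passed in each list. Where none passed, the defining marker of the list could be named. Fabp4, Lgals1, Ly6g and Camp were named beyond this rule. Alternatives were RLE size factors, no low-count filter, limma 3.58.1 (voom, weighting libraries by quality), DESeq2 1.42.0, a term for replicate number, a term for runs of library names, only the groups compared, and libraries left out. The tests were tried on simulated data with known changes. Correlations used scipy 1.17.1, with numpy 2.4.6 and pandas 2.3.3 in Python 3.11.15, and plots matplotlib 3.10.9. Gene positions came from GENCODE M21 (GRCm38) and promoters from RefSeq (GRCm38.p6).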

Additional observations from a re-analysis of the deposited data

Results flagged for a closer look

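In each of 40 sets of values (10 genes in 4 groups) the highest and lowest library were set against the rest of their group, and 12 sets, of 8 genes, held a library far from the others by Dixon's criterion. For normally distributed values chance gives this in about 1 in 20 groups. The criterion was applied to CPM without a log, and in all 12 sets it was the highest library that stood apart. That rate is therefore no measure of how many sets to expect here. Of the 12, 3 came from Control_p53KO 1, at 179 CPM of Cd14, 78.8 CPM of Atp6v0d2 and 482 CPM of Spp1. Another 3 came from Control_p53KO 3, at 43.0 CPM of Trem2, 267 CPM of Cd207 and 958 CPM of Lyz2. Control_Rosa26KO 2 stood high in Itgax at 24.98 CPM and in Gpnmb at 42.0 CPM. HFD_Rosa26KO 5 stood high in Cd207 at 6.77 CPM, and HFD_Rosa26KO 6 in Atp6v0d2 at 39.1 CPM. HFD_p53KO 5 stood high in Atp6v0d2 at 20.9 CPM, and HFD_p53KO 2 in Spp1 at 688 CPM.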

How the results depend on the processing

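Cd207 and Mmp12 passed for the diet average in all 33 alternatives, and Cd207 passed in p53KO in 33 of 34. RLE size factors and the absent low-count filter changed no direction or call of the 41 log2 fold changes examined. All 10 genes passed the filter, so the exact permutation test meant for removed genes had none to test. Depth limited the low genes most, with as few as 8 reads for Cd207.

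Whether the replicate numbers pair the libraries was not settled. Over 1000 variable genes, same-numbered libraries of different groups had a median r of 0.08 (-0.55 to 0.57, 17 of 36 pairs above 0.1). Libraries of other numbers had a median r of -0.05 (-0.60 to 0.72, 66 of 198 pairs above 0.1). No crossing was made. With the replicate block 549 genes passed in Rosa26KO, 785 in p53KO, 2282 for the diet average and 1 for the genotype average, and 2 members, Cd207 and Mmp12 (2.44, adjusted p = 0.0380 in edgeR), passed in p53KO.

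The main counts of genes were 213 in Rosa26KO, 405 in p53KO and 1372 for the diet average. In Rosa26KO the term for runs gave 442, only the groups compared 653, the fit without the 3 libraries high in neutrophil genes 538, limma voom 3023 and DESeq2 615. Those 3 were Control_p53KO 1, Control_p53KO 3 and HFD_Rosa26KO 6. Control_p53KO 3 was also the highest in macrophage and Kupffer cell markers. In p53KO the term for runs gave 633, only the groups compared 121, limma voom 2184 and DESeq2 907. For the diet average the fit without the 3 libraries gave 2500 and limma voom 5001. For genotype DESeq2 gave 1 on control diet, 1 on HFD, 7 on average and 5 for the interaction, and for the average limma voom gave 2 and the fit without the 3 libraries 1. With each library left out in turn the counts ran from 93 to 509 in Rosa26KO, 173 to 760 in p53KO, 1012 to 1883 for the diet average and 0 to 1 for the genotype average.

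Members that passed numbered 0 in Rosa26KO, 1 in p53KO and 2 for the diet average, where 1.51%, 2.87% and 9.71% of all genes passed. In Rosa26KO only the groups compared gave 1 (4.77% of all genes) and limma voom 4 (21.4%). In p53KO only the groups compared gave 0 (0.878% of all genes), limma voom 4 (15.5%) and DESeq2 2 (6.43%). The fits without neutrophil-high or acute-phase-high libraries gave 2 each there, with numbers of all genes within 1.5-fold of the main 405. For the average the former gave 5, with 2500 of all genes. The latter gave 4, with a number of all genes within 1.5-fold of the main 1372. Limma voom gave 7 for the average, where it called 35.4% of all genes. With each library left out the numbers ran from 1 to 2 in p53KO and 2 to 4 for the average. Of all genes 173 to 760 and 1012 to 1883 passed in these fits.

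Some log2 fold changes that did not pass in the main fit turned sign. In p53KO on HFD Trem2 was 0.99 with the replicate block, 0.23 with the term for runs, 2.17 without the neutrophil-high libraries (passed, adjusted p = 0.0459 in edgeR), 0.0013 without the acute-phase-high libraries and 1.96 in limma voom (passed, adjusted p = 0.0249). Cd14 there was 1.61, 0.63 and 1.04 in the last 3 fits, Lyz2 0.19 without the neutrophil-high libraries and 0.044 in limma voom, and Atp6v0d2 0.10 without the acute-phase-high libraries. For the diet average Atp6v0d2 was 0.18, 0.010, 0.090, 0.62 and 0.17 in the 5 fits named for Trem2, and Lyz2 0.039 without the neutrophil-high libraries and 0.11 in limma voom. In Rosa26KO Lyz2 was -0.11 and -0.023 without the neutrophil-high or acute-phase-high libraries, and Cd9 0.032 without the latter. For genotype on control diet Trem2 was -0.058 with the replicate block, -1.57 without the neutrophil-high libraries and -0.42 in limma voom, and Lyz2 -0.37 without these. The Cd14 interaction was 0.19 without them. The cause was not tested. With each library left out in turn, Cd9 in Rosa26KO ran from -0.14 to 0.032, Lyz2 from -0.13 to 0.33, and in p53KO Trem2 from -0.37 to 1.78, Cd14 from -1.48 to 0.82 and Lyz2 from -1.08 to 0.00073. For the diet average the ranges were -0.33 to 0.43 for Atp6v0d2, -0.043 to 1.11 for Cd14, -0.52 to 0.021 for Lyz2 and -0.020 to 1.05 for Trem2. For genotype on control diet they were -1.18 to 0.97 for Trem2 and -0.18 to 1.01 for Lyz2.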
